A study of Homo sapiens with 12 samples.

Results

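The genes described here are 10 relatives of the knocked-out phosphatase PPM1G in the metal-dependent protein phosphatase (PPM) family: PPM1A, PPM1B, PPM1D, PPM1F, PPM1H, PPM1K, PPM1L, ILKAP, PDP1 and PPTC7. They were taken by gene symbol from 2 count tables of 56104 gene IDs each, and all 10 were present in both tables. The cells were HCT116, a colorectal carcinoma line used under passage 15. In 1 genotype, KO, PPM1G was knocked out; the other, Ctrl, is titled Ctrl_KO, and the labels do not say what its cells had been through or whether either line is 1 clone. Each genotype was measured in 3 libraries by 4sU-seq and in 3 by RNA-seq, 12 libraries in all. For 4sU-seq, cells took up 4-thiouridine (500 µM) in a pulse of 10 min, and RNA made during it was biotinylated and pulled down, so that the counts stand for nascent RNA; RNA-seq counts stand for steady-state RNA. The series asks how both kinds of RNA differ between Ctrl and PPM1G KO cells.

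PPM phosphatases remove phosphate from serine and threonine and need magnesium or manganese ions in the active site. Unlike the PP1 and PP2A enzymes they mostly act as single chains, without the regulatory subunits that direct those enzymes to a substrate, so that the family itself supplies much of the specificity. Some members work in mitochondria on metabolic enzymes, some switch off stress kinases and the DNA damage response, and others act on adhesion, actin and membrane traffic. PPM1G itself is mainly nuclear.

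Gene counts per library ranged from 79403238 to 101884166 in 4sU-seq and from 30962756 to 42479828 in RNA-seq. At these depths 3 counts, the floor used here, stand for 0.0302 to 0.0365 and for 0.074 to 0.0973 CPM (counts relative to library size, scaled by TMM); floors cover counting error only. PPM1G itself fell in KO by 1.11 ± 0.17 on the log2 scale in 4sU-seq and by 1.71 ± 0.06 in RNA-seq; scaling by the ERCC spike-in RNA ended the nascent call (−0.93 ± 0.32, adjusted p = 0.196). Here and below, log2 changes are KO over Ctrl with their standard error from edgeR's quasi-likelihood test, with n = 3 libraries per group, and p-values are adjusted by Benjamini-Hochberg over all genes tested in the assay. The labels call the 4sU-seq libraries biological replicates and do not describe the RNA-seq cultures, so that p-values there measure the spread between these libraries, which may be technical. One library, 4sU-seq KO replicate 2, stood apart from its group, with a mean chi-square per gene of 387 and 503 against the other KO libraries, which differed from each other by 40.1. Of 7 colon epithelium markers (EPCAM, KRT8, KRT18, CDH1, CDH17, CDX2, VIL1), 7 were at 1 CPM or more in every 4sU-seq library and 5 in every RNA-seq library; CDH17 and VIL1 were below it there. Of 7 blood, endothelial and fibroblast markers, PECAM1 and COL1A1 exceeded 1 CPM in 4sU-seq and COL1A1 in RNA-seq. Their summed level was 8.78 to 10.5 CPM in Ctrl and 19 to 22.1 in KO in 4sU-seq, and 4.25 to 6.39 and 9.76 to 11.1 CPM in RNA-seq. LUM was at 0 in both assays and COL1A2 and DCN in RNA-seq; the part of these markers in the results below was not tested.

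In nascent RNA 4 of the 10 relatives passed the threshold of 0.05, against 19.6% of all 21236 genes tested. PPM1K and PDP1 rose (12.6% of all genes rose) and ILKAP and PPTC7 fell (6.98% fell). The other 6 were not called, with PPM1A at an unadjusted p of 0.0298. The median change of the 10 was 0.18, against 0.05 for all genes. In steady-state RNA 6 of 10 passed, against 48.4% of 20415 genes: PPM1A and PPM1K rose (21.5% of all genes rose) and PPM1B, PPM1H, ILKAP and PPTC7 fell (26.8% fell). The median there was −0.07, against 0 for all genes. These shares are counts over few genes and are read beside the background only. The split of calls depended on the scaling: 64.4% of all calls in 4sU-seq and 44.6% in RNA-seq were higher in KO, against 93.9% and 61.6% with ERCC scaling and 78.3% and 72.5% with library size alone. With library size alone 7439 genes rose and 2817 fell in RNA-seq, and of the relatives PPM1A, PPM1D, PPM1F, PPM1K and PPM1L rose and ILKAP and PPTC7 fell. The plot of CPM by library shows all values. In bulk RNA, fewer cells of a kind and less RNA per cell cannot be told apart.

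**Figure D1:**
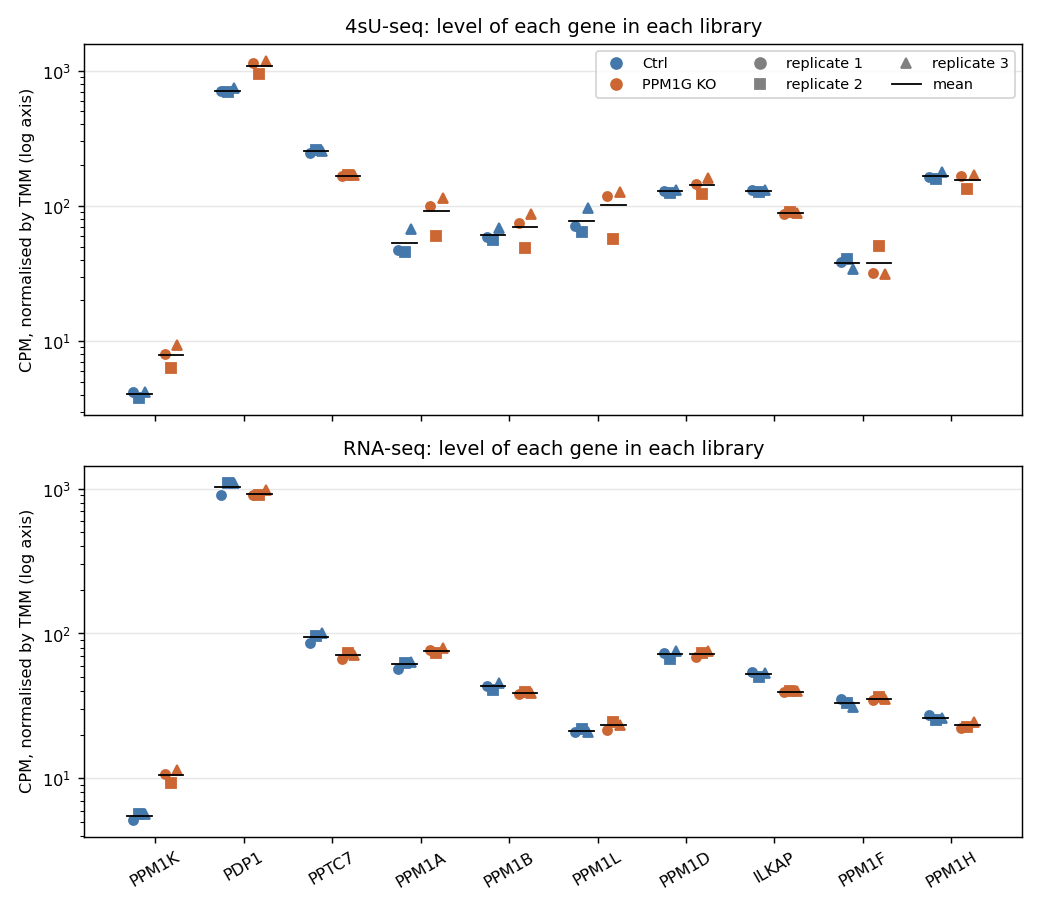
Level of the 10 PPM relatives in each library, in CPM normalised by TMM on a log axis, for 4sU-seq (top) and RNA-seq (bottom); colour gives the genotype, symbol shape the replicate number and the line the mean of 3 libraries. PPM1K is higher and ILKAP and PPTC7 are lower in every KO library of both assays, and the KO libraries of PPM1A, PPM1B, PPM1L and PPM1F spread more in 4sU-seq than in RNA-seq, with KO replicate 2 apart.

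The mitochondrial members came first. PPM1K encodes the phosphatase that activates the branched-chain keto acid dehydrogenase, the committed step in the breakdown of leucine, isoleucine and valine. In 4sU-seq it stood at 4.21, 3.77 and 4.24 CPM in Ctrl replicates 1 to 3 and at 7.99, 6.29 and 9.32 CPM in the KO replicates. In RNA-seq the levels were 5.16, 5.65 and 5.71 CPM in Ctrl and 10.7, 9.35 and 11.4 CPM in KO. The groups do not overlap in either assay. PPM1K rose by 0.95 ± 0.17 (log2; adjusted p = 0.0135) in nascent and by 0.93 ± 0.10 (adjusted p = 4.18e-06) in steady-state RNA, a fold of 1.93 (95% interval 1.44 to 2.58) and 1.91 (1.65 to 2.20). Leaving out any Ctrl library, or KO replicate 1, ended the nascent call (0.89 to 0.96, adjusted p = 0.0616 to 0.0727).

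PDP1 encodes a catalytic subunit of pyruvate dehydrogenase phosphatase, which switches the pyruvate dehydrogenase complex on by removing the phosphates set by its kinases. Its nascent RNA was at 702, 690 and 738 CPM in Ctrl and at 1130, 947 and 1180 CPM in KO. Its steady-state RNA was at 896, 1100 and 1090 CPM in Ctrl and at 897, 895 and 974 CPM in KO. The nascent groups are apart, while the steady-state groups overlap because Ctrl replicate 1 is as low as the KO libraries. PDP1 rose in nascent RNA by 0.62 ± 0.11 (adjusted p = 0.0106). In steady-state RNA its log2 change was −0.16 ± 0.08 (95% interval −0.33 to 0.01, adjusted p = 0.112). Leaving out any Ctrl library, or KO replicate 1, ended the nascent call (0.58 to 0.60, adjusted p = 0.0533 to 0.065). Without Ctrl replicate 1 the steady-state change of −0.20 was called (adjusted p = 0.00746).

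PPTC7 encodes a phosphatase of the mitochondrial matrix that is linked to coenzyme Q synthesis and to restraint of the mitophagy receptors BNIP3 and NIX (the product of BNIP3L). Nascent PPTC7 was at 248, 260 and 255 CPM in Ctrl and at 166, 168 and 168 CPM in KO. Steady-state PPTC7 was at 86.3, 95.6 and 100 CPM in Ctrl and at 66.5, 73.5 and 71.5 CPM in KO. All KO libraries lie below all Ctrl libraries in both assays. PPTC7 fell by 0.60 ± 0.08 (adjusted p = 0.00524) and by 0.41 ± 0.07 (adjusted p = 0.000195) on the log2 scale. It was called without each library in turn in both assays.

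The next members act on stress kinases and the DNA damage response. PPM1A dephosphorylates stress-activated MAP kinases and the TGF-beta transducers SMAD2 and SMAD3. Its nascent RNA was at 47.4, 45.9 and 67.4 CPM in Ctrl and at 99.4, 59.4 and 114 CPM in KO, and its steady-state RNA at 57.3, 62.7 and 63.6 CPM in Ctrl and at 77.1, 73.1 and 78.8 CPM in KO. KO replicate 2 lies among the Ctrl libraries in 4sU-seq, whereas the RNA-seq groups are apart. PPM1A rose in steady-state RNA by 0.32 ± 0.06 (adjusted p = 0.000663). In nascent RNA its log2 change was 0.76 ± 0.28 (adjusted p = 0.104), and 0.92 (adjusted p = 0.0047) without KO replicate 2. The steady-state call was lost when all 12 libraries shared 1 estimate of spread (0.32, adjusted p = 0.309); in that fit the nascent change was called (0.76, adjusted p = 0.0174), as it was with the trend over gene span removed (0.71, adjusted p = 0.0471).

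PPM1B, which removes phosphate from TAK1 and from the kinases IKKβ and TBK1, was at 58.4, 55.7 and 68.8 CPM in Ctrl and 74.3, 49.2 and 86.5 CPM in KO in 4sU-seq. In RNA-seq it was at 43.5, 41.0 and 45.3 CPM in Ctrl and at 38, 39.4 and 39.1 CPM in KO. Nascent levels overlap and their log2 change was 0.20 ± 0.22 (95% interval −0.33 to 0.73). Steady-state levels do not overlap and fell by 0.16 ± 0.06 (adjusted p = 0.0336). That call was lost without any 1 library other than Ctrl replicate 2 (−0.10 to −0.17, adjusted p = 0.0696 to 0.239), and the change was 0.03 (adjusted p = 0.653) with library size alone as the scaling. It was not called by DESeq2's Wald test either (adjusted p = 0.108). Library size alone moved the median of all genes in RNA-seq from 0 to 0.19.

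PPM1L, a membrane-bound enzyme of the endoplasmic reticulum that acts on TAK1, ASK1 and the ceramide carrier CERT, was at 71.1, 64.1 and 97.2 CPM in Ctrl and at 119, 57.1 and 127 CPM in KO in nascent RNA. KO replicate 2 is the lowest of the 6 libraries and the other KO libraries are the highest. The log2 change was 0.38 ± 0.32 (95% interval −0.39 to 1.15), and 0.59 (adjusted p = 0.0235) without KO replicate 2. With the trend over gene span removed it was 0.03 ± 0.13 (adjusted p = 0.893). Steady-state PPM1L was at 21, 22.1 and 21 CPM in Ctrl and 21.7, 24.6 and 23.5 CPM in KO, a log2 change of 0.12 ± 0.06 (95% interval −0.01 to 0.26). That change was called with library size alone (0.31, adjusted p = 0.00236) and among genes with a mean of at least 50 counts (0.19, adjusted p = 0.021).

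PPM1D encodes WIP1, the phosphatase that returns ATM and its other substrates to the unphosphorylated state after DNA damage. It was at 128, 125 and 132 CPM in Ctrl and 144, 123 and 161 CPM in KO in nascent RNA, and at 73.6, 67.2 and 76.1 CPM in Ctrl and 69.3, 73.4 and 75.6 CPM in KO in steady-state RNA. The groups overlap in both assays. Its log2 changes were 0.15 ± 0.12 (95% interval −0.15 to 0.45) and 0.01 ± 0.06 (−0.13 to 0.14). The steady-state interval holds for TMM scaling: with library size alone the change was 0.19 ± 0.05 and was called (adjusted p = 0.0113).

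The remaining members act on adhesion, actin and membrane traffic. ILKAP binds integrin-linked kinase and dampens its signal to GSK3β. Its nascent RNA was at 130, 127 and 130 CPM in Ctrl and at 87.7, 90.1 and 89 CPM in KO, with an SD of 1.23 and 1.21 CPM. Its steady-state RNA was at 54.4, 50.4 and 53.8 CPM in Ctrl and at 39.2, 40 and 40 CPM in KO. ILKAP fell by 0.54 ± 0.09 (adjusted p = 0.00982) and by 0.41 ± 0.05 (adjusted p = 3.09e-05), with no overlap in either assay. Leaving out the Ctrl library numbered 1 or 2, or KO replicate 1, ended the nascent call (−0.53 to −0.55, adjusted p = 0.0595 to 0.0701).

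PPM1F, which dephosphorylates CaM kinases and the PAK kinases bound to PIX proteins, was at 38.7, 40.5 and 34.1 CPM in Ctrl and at 32.1, 50.3 and 31.5 CPM in KO in nascent RNA. KO replicate 2 is the highest of the 6 libraries and the other KO libraries are the lowest. Its log2 change was 0.01 ± 0.21 with all libraries and −0.32 ± 0.10 (adjusted p = 0.0343) without KO replicate 2. Ctrl replicate 2 is the highest Ctrl library too. Without both libraries numbered 2 the change was −0.23 ± 0.11 and was not called (adjusted p = 0.11). Steady-state PPM1F was at 35.1, 33 and 31 CPM in Ctrl and at 34.8, 36.3 and 35.2 CPM in KO (0.10 ± 0.06, adjusted p = 0.182); without Ctrl replicate 1 the change was 0.19 (adjusted p = 0.01). It was also called with library size alone (0.28, adjusted p = 0.00414) and among genes with a mean of at least 50 counts (0.17, adjusted p = 0.0316). An antisense gene overlaps the end of PPM1F and held 481 to 728 counts per RNA-seq library, so that reads there may have been split.

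PPM1H removes the phosphate that the kinase LRRK2 sets on Rab proteins. It was at 164, 157 and 177 CPM in Ctrl and 167, 133 and 168 CPM in KO in nascent RNA (−0.09 ± 0.13, 95% interval −0.39 to 0.21). In steady-state RNA it was at 27.4, 25.2 and 26 CPM in Ctrl and at 22.3, 22.8 and 24.6 CPM in KO and fell by 0.17 ± 0.06 (adjusted p = 0.0296). The fall was no longer called on leaving out Ctrl library 1 or 3, or KO library 1 or 2 (−0.10 to −0.16, adjusted p = 0.104 to 0.228). Nor was it called by DESeq2's Wald test (adjusted p = 0.113), and the change was 0.01 with library size alone. RNA-seq KO replicates 1 and 2 were the most alike pair within a genotype in RNA-seq; added into 1 library, they left neither PPM1H (adjusted p = 0.104) nor PPM1B (adjusted p = 0.0975) called.

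**Figure D2:**
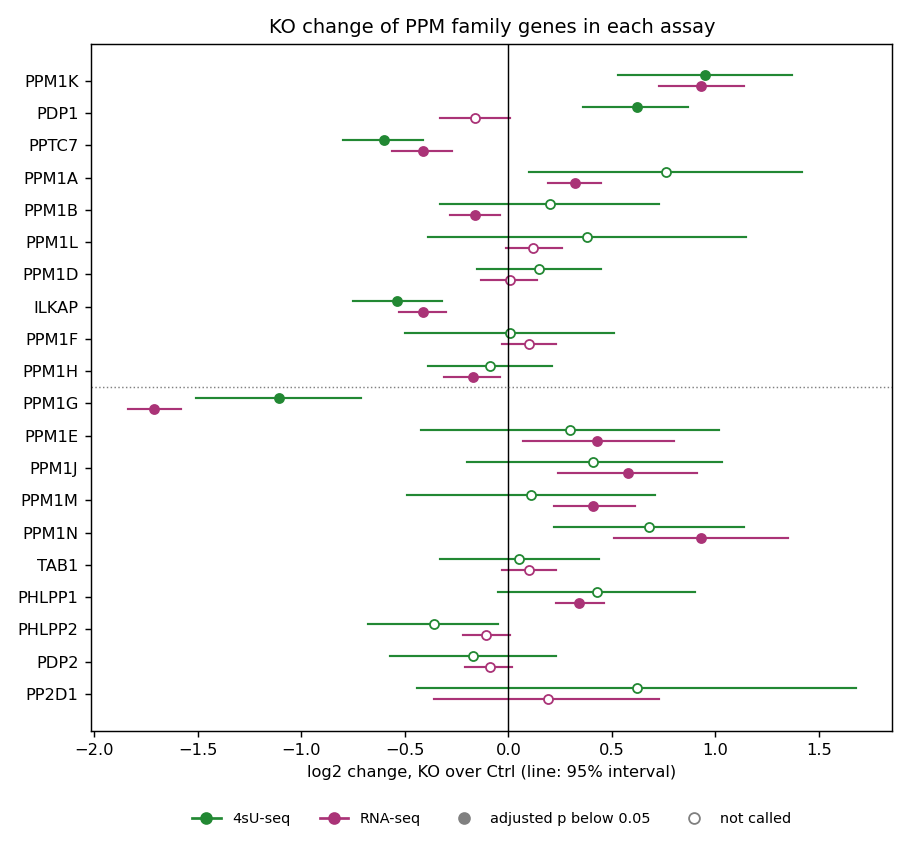
Log2 change of KO over Ctrl for the 10 relatives (above the dotted line), PPM1G and the 9 other family genes (below it), in 4sU-seq (green) and RNA-seq (purple), with 95% intervals; filled points have an adjusted p below 0.05. The intervals of PPM1K, ILKAP, PPTC7, PPM1A, PPM1G and PPM1N lie on the same side of 0 in both assays, though PPM1A and PPM1N are not called in 4sU-seq. Those of PDP1 do not, and 4sU-seq intervals are wider than RNA-seq intervals for every gene shown.

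Groups did not overlap for 4 of the 10 genes in 4sU-seq, against 38.4% of all genes tested (20.6% higher and 17.8% lower in KO), and for 6 of 10 in RNA-seq, against 56.1% (26.1% higher and 29.9% lower). Scaling by the ERCC spike-in RNA, whose share of counts spanned 0.023 to 0.056% among 4sU-seq libraries, ended all 4 nascent calls. The changes were then 1.25 for PPM1K (adjusted p = 0.224), 0.89 for PDP1 (0.435), −0.30 for ILKAP (0.785) and −0.37 for PPTC7 (0.745). This scaling moved the median of all genes in 4sU-seq from 0.05 to 0.27. In RNA-seq it ended the calls of PPM1B and PPM1H (adjusted p = 0.638 and 0.566) and left those of PPM1A, PPM1K, ILKAP and PPTC7.

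**Figure D3:**
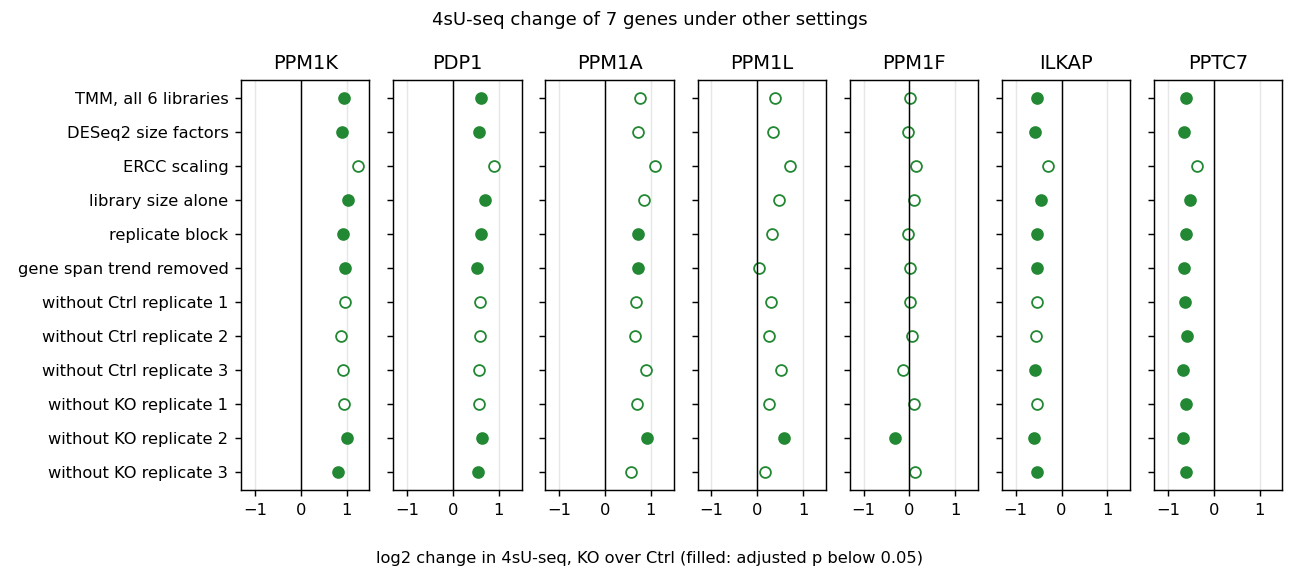
Log2 change of KO over Ctrl in 4sU-seq for 7 of the relatives under 12 settings; filled points have an adjusted p below 0.05. PPTC7 is called under every setting shown but ERCC scaling, and PPM1F is at 0.01 with all 6 libraries and at −0.32 without KO replicate 2.

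Whether the KO change differed between nascent and steady-state RNA was tested in 1 model of all 12 libraries, as the interaction of assay with genotype. PDP1 was the 1 relative of 10 called, against 2.14% of 15863 genes (1.12% with the log2 change in 4sU-seq above that in RNA-seq and 1.03% with it below). Its nascent change exceeded its steady-state change by 0.77 ± 0.15 (log2; adjusted p = 0.0252). Its ratio of 4sU-seq to RNA-seq level rose from 0.69 in Ctrl to 1.18 in KO. The call was lost without each of 9 of the 12 libraries (0.70 to 0.82, adjusted p = 0.05 to 0.0911); it was kept without 4sU-seq KO replicate 2 or 3 or RNA-seq Ctrl replicate 1. For the relatives that moved 1 way in both assays the difference was 0.02 ± 0.20 for PPM1K, −0.12 ± 0.10 for ILKAP and −0.19 ± 0.11 for PPTC7, with adjusted p of 0.986, 0.617 and 0.437. Without 4sU-seq KO replicate 2, PPM1A (0.60, adjusted p = 0.0302), PPM1B (0.49, adjusted p = 0.0178) and PPM1F (−0.42, adjusted p = 0.0164) were called as well, among 5095 genes called.

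The relatives differed in how much nascent RNA they had for their steady-state RNA. In Ctrl the ratio of CPM was highest for PPM1H (6.25, above 94.8% of genes) and PPM1L (3.57, above 87.4%), the members with the longest spans (291 and 323 kb). It was 2.70 for PPTC7, 2.42 for ILKAP, 1.77 for PPM1D, 1.40 for PPM1B, 1.14 for PPM1F, 0.876 for PPM1A, 0.762 for PPM1K and 0.69 for PDP1. Introns enter the 4sU-seq counts to an extent that the sources used here do not give. Of 616 genes lying inside an intron of a gene on the same strand, with at least 100 RNA-seq counts, 98.7% were at 0 in all 4sU-seq libraries. On the other strand the share was 97.1% of 837, and among genes that overlap none it was 1.16% of 5606. GAPDHP44 inside PPM1H and MIR378D2 inside PDP1 are such genes, at 0 in 4sU-seq and at 38 to 78 and 234 to 333 counts per RNA-seq library. Whether reads of such genes stand in the host's 4sU-seq counts or were counted for neither gene is not known here. Their part in the ratios was not tested.

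Levels were compared between genes as RNA-seq CPM per kb of exon. PDP1 led the family in Ctrl at 160, 196 and 195, rank 122 of 13098 coding genes. PPM1G followed at 79.7, 71.7 and 81, then PPTC7 at 15.2, 16.8 and 17.6, PPM1D at 14.6, 13.3 and 15.1, and ILKAP at 11.4, 10.6 and 11.3. PPM1B (mean 6.09), PPM1A (5.16), PPM1H (3.71), PPM1F (3.28) and PPM1L (1.71) lay lower, and PPM1K, at 0.453, 0.497 and 0.502, was the lowest relative, above 15.9% of coding genes. No neighbouring pair of the 10 overlapped in its Ctrl libraries. Of the other family genes TAB1 overlapped PPM1B. In KO the order of 2 pairs turned, with PPM1D (13.7 to 15) above PPTC7 (11.7 to 12.9) and PPM1A (6.17 to 6.64) above PPM1B (5.35 to 5.55). PPM1F (3.45 to 3.6) and PPM1H (3.15 to 3.48) overlapped in KO. Exon length is the union over all annotated transcripts, so a gene with a long and rarely used exon is set too low.

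**Figure D4:**
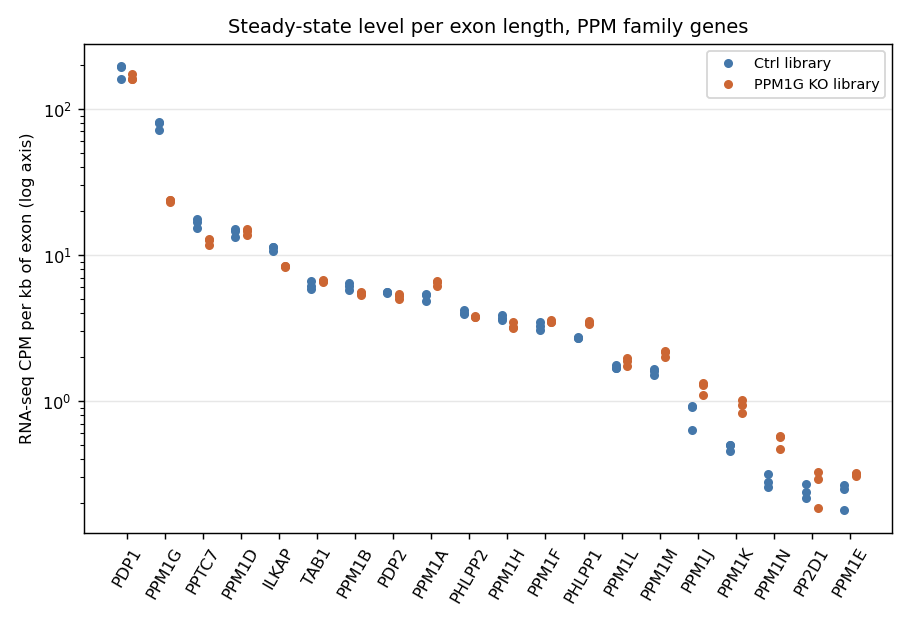
RNA-seq CPM per kb of exon, on a log axis, of the 20 PPM family genes in each Ctrl (blue) and KO (orange) library, ordered by the Ctrl mean. PDP1 and PPM1G stand above the rest in Ctrl, and in KO PPM1G stays second while PPM1D passes PPTC7.

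Per kb of exon, PPM1G made up 47.9 ± 1.18% (SD, n = 3) of the summed family without PDP1 in Ctrl and 22.8 ± 0.632% in KO. The 10 relatives without PDP1 summed to 62.4 ± 2.01 CPM per kb in Ctrl and 56.6 ± 1.66 in KO, and PDP1 was 74.5 ± 2.1% and 74.4 ± 0.697% of the sum of the 10. Under TMM scaling the sums without PDP1 were 60.9 to 64.7 in the Ctrl libraries and 54.8 to 58 in the KO libraries. They were not computed under other scalings, and library size alone moved the median of all genes in RNA-seq from 0 to 0.19. Of all genes tested in RNA-seq, 56.1% had groups that did not overlap, 29.9% with KO lower. Of the 9 other family genes none was called in nascent RNA by edgeR, where PPM1N and PHLPP2 had unadjusted p below 0.05; DESeq2's Wald test called these 2. Without 4sU-seq KO replicate 2 edgeR called 6 of the 9: PPM1E, PPM1N, PHLPP1 and PP2D1 higher and PHLPP2 and PDP2 lower (adjusted p = 0.00679 to 0.0316). That setting called 11673 of all 21686 genes tested (5515 higher and 6158 lower), so the 6 are read beside that background only. In RNA-seq 5 of 9 rose, against 21.5% of all genes, and none fell: PPM1N (0.93 ± 0.19), PPM1J (0.58 ± 0.16), PPM1E (0.43 ± 0.17), PPM1M (0.41 ± 0.09) and PHLPP1 (0.34 ± 0.05). PPM1N, PPM1J and PPM1E stand below 1 CPM per kb of exon in Ctrl. The call of PPM1E (adjusted p = 0.0493) ended on leaving out Ctrl library 3 or any KO library (adjusted p = 0.0877 to 0.128), and with KO replicates 1 and 2 added into 1 library (adjusted p = 0.0858). With 1 estimate of spread over all 12 libraries PPM1N alone of the 5 stayed called, and the others were at adjusted p = 0.101 to 0.312. TAB1, PHLPP2, PDP2 and PP2D1 were not called.

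Promoter sequence was listed for 8 of the 10 relatives, with 11 starts (RefSeq, GRCh38, the table's build being GRCh38.p14). PDP1 and PPTC7 had no entry. In the 250 bases before each start 4 motifs were searched on both strands: the cAMP response element TGACGTCA, held by 1.65% of 35116 promoters, the GC box GGGCGG (42.6%), CCAAT (32%) and the E-box CACGTG (6.34%). Overlapping matches were counted separately. The windows of 3 relatives are given, with every match in capitals: PPM1A and PPM1D, which share the cAMP response element, the rarest of these motifs, and of which PPM1A alone was called in steady-state RNA, and ILKAP, which fell in both assays and holds the most GC boxes. The PPM1A window, chr14:60248971-60249110 on the plus strand, lies in an intron of PPM1A before its second start. The PPM1D window is chr17:60600053-60600182 on the plus strand and the ILKAP window chr2:238203732-238203845 on the minus strand. Each lies just before its gene, outside that gene's annotated exons. Exons of other genes were not checked.
PPM1A: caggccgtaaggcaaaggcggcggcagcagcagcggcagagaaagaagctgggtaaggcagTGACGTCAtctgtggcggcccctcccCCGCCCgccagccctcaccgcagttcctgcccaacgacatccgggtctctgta
PPM1D: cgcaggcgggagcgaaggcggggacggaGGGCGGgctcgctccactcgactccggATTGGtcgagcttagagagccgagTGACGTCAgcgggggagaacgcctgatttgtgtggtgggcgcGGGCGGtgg
ILKAP: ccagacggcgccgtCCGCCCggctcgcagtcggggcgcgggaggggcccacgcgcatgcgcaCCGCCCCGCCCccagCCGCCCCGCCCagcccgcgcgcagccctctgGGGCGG

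The cAMP response element lies 189 bases before the start in PPM1A and 61 before it in PPM1D. ILKAP holds 6 GC boxes, the nearest 42 bases before the start. Its CCAAT box, 16 bases before the start, lies outside the window printed. So does the nearer of 2 GC boxes of PPM1A, 68 bases before its second start. PPM1K held GC boxes (2, the nearest 109 bases before the start) and none of the other motifs. A match describes these letters only.

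Genes that meet the relatives in a pathway were counted from lists chosen by known function. Their counts are read beside the shares over all genes, 48.4% called in RNA-seq (21.5% higher, 26.8% lower) and 19.6% in 4sU-seq (12.6% higher, 6.98% lower). Counts under other settings have other backgrounds. With ERCC scaling 4372 of 20415 genes rose and 2731 fell in RNA-seq. DESeq2's Wald test called 3092 of 21236 genes higher and 2426 lower in 4sU-seq. In RNA-seq it called 3788 of 20415 higher and 4835 lower. For branched-chain amino acid breakdown, in which PPM1K acts, 6 of 7 listed genes were tested in each assay. BCAT1 was not tested in RNA-seq. BCKDHA was not tested in 4sU-seq, where it had 0 to 2 counts per library, against 24 to 37 in RNA-seq. In RNA-seq 1 gene rose and 3 fell, and with ERCC scaling 1 rose and none fell. In nascent RNA edgeR called 0, with 0 at an unadjusted p below 0.05, and DESeq2 called 0. DBT, the acyltransferase core of the complex, rose by 0.44 ± 0.06 (adjusted p = 4.52e-05). BCKDK, the kinase that opposes PPM1K, fell by 0.26 ± 0.06 (adjusted p = 0.00257) and the transaminase BCAT2 by 0.28 ± 0.06 (adjusted p = 0.000941). The list's median was −0.04 in RNA-seq.

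Around PDP1, 12 genes of the pyruvate dehydrogenase complex, its kinases and pyruvate import were tested. In RNA-seq (48.4% of all genes called) 5 rose and 3 fell, and 4 rose and 1 fell with ERCC scaling. In nascent RNA (19.6% called) 1 rose and 1 fell, and DESeq2 called 3 higher and 2 lower, adding PDK1, PDK3 and PDPR. The kinases that oppose PDP1 were among those that rose: PDK4 from 0.191 to 1.52 CPM (mean of 3) in 4sU-seq (2.96 ± 0.34, adjusted p = 0.00293) and from 0.42 to 1.45 in RNA-seq (1.80 ± 0.23, adjusted p = 2.94e-05), and PDK1 from 12.2 to 21.1 in RNA-seq (0.80 ± 0.06, adjusted p = 4.36e-07). DLAT, the acetyltransferase core, fell by 0.57 ± 0.09 in 4sU-seq (adjusted p = 0.00921) and by 0.43 ± 0.06 in RNA-seq (adjusted p = 5.46e-05). Leaving out Ctrl library 1 or 2, or KO library 1, ended the nascent call of DLAT (adjusted p = 0.0562 to 0.0597).

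Around PPTC7, 5 genes were tested, of which BNIP3L rose in nascent RNA and 2 rose and 2 fell in RNA-seq (48.4% of all genes called); with ERCC scaling 2 rose and none fell there. BNIP3L went from 14.5 to 39.8 CPM in 4sU-seq (1.46 ± 0.13, adjusted p = 0.00148) and from 16.1 to 34.5 CPM in RNA-seq (1.10 ± 0.07, adjusted p = 6.53e-08). BNIP3 rose in RNA-seq by 0.33 ± 0.06 (adjusted p = 0.000493) and COQ7, a hydroxylase of coenzyme Q synthesis, fell by 0.32 ± 0.06 (adjusted p = 0.000404).

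Of 15 genes of TAK1, stress kinase and SMAD signalling, on which PPM1A, PPM1B and PPM1L act, 14 were tested in RNA-seq, with 1 higher and 5 lower (21.5% and 26.8% of all genes), and none higher and 3 lower with ERCC scaling. In nascent RNA 1 of 15 fell, against 6.98% of all genes. SMAD3, a substrate of PPM1A, fell in RNA-seq from 192 to 110 CPM (−0.81 ± 0.06, adjusted p = 1.86e-07) and in nascent RNA by 0.47 ± 0.08 (adjusted p = 0.0124), a call that ended on leaving out Ctrl library 1 or 2, or KO library 1 (adjusted p = 0.054 to 0.0748). The stress kinase kinases MAP2K4 and MAP2K3 fell in RNA-seq by 0.66 ± 0.06 (adjusted p = 8.88e-07) and 0.60 ± 0.05 (adjusted p = 1.16e-06). The ceramide transfer genes COL4A3BP, which encodes CERT, VAPA and VAPB all fell in RNA-seq, by 0.38 ± 0.07, 0.25 ± 0.06 and 0.21 ± 0.05, and in nascent RNA edgeR called 0 of the 3, with 1 at an unadjusted p below 0.05; DESeq2 called VAPB lower there.

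Of 7 genes of the DNA damage response around PPM1D, edgeR called 0 in nascent RNA, with 2 at an unadjusted p below 0.05, and DESeq2 called CHEK2 lower. In RNA-seq 2 fell, against 26.8% of all genes: H2AFX (−0.34 ± 0.06, adjusted p = 0.000442) and MDM4 (−0.23 ± 0.06, adjusted p = 0.00489). DESeq2 called both and MDM2, which was higher. Of 7 genes of the integrin-linked kinase complex around ILKAP, 1 rose and 4 fell in RNA-seq (48.4% of all genes called), and 1 rose and 1 fell in 4sU-seq (19.6% called). With ERCC scaling 1 rose and 2 fell in RNA-seq. LIMS2, an adaptor of that kinase, rose by 2.47 ± 0.19 in 4sU-seq (0.994 to 5.51 CPM, adjusted p = 0.000916) and by 2.40 ± 0.19 in RNA-seq (adjusted p = 4.54e-07). PARVA, the actin-binding parvin, fell by 0.62 ± 0.05 (adjusted p = 5.83e-07) and RSU1 by 0.61 ± 0.05 (adjusted p = 9.04e-07) in RNA-seq. RSU1 was not called in 4sU-seq, where its log2 change was 0 ± 0.16 (adjusted p = 0.989). PARVA was also called lower in 4sU-seq (−0.49 ± 0.11, adjusted p = 0.0286), and that call was lost without any 1 library other than KO replicate 2 (adjusted p = 0.0532 to 0.113).

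Around PPM1F, 9 genes were tested in RNA-seq, for PAK kinases, PIX proteins, CaM kinases and the integrin subunit ITGB1. In RNA-seq 1 rose and 6 fell, against 21.5% and 26.8% of all genes, and 1 rose and 4 fell with ERCC scaling. Of 8 tested in 4sU-seq 1 rose and 1 fell (12.6% and 6.98% of all genes). CAMK1 was not tested there, with 0 counts in every library, against 94 to 213 per library in RNA-seq. CAMK2D fell from 157 to 36 CPM in RNA-seq (−2.12 ± 0.06, adjusted p = 3.62e-11). Its groups overlapped in 4sU-seq, where it was not called (−1.07 ± 0.59, adjusted p = 0.257). PAK2 fell by 0.47 ± 0.05 (adjusted p = 6.75e-06) and ARHGEF7, a PIX protein, by 0.46 ± 0.06 (adjusted p = 2.06e-05) in RNA-seq. PAK2 was also lower in 4sU-seq (−0.40 ± 0.09, adjusted p = 0.0317), a call lost without any 1 library other than KO replicate 2 (adjusted p = 0.0842 to 0.147). Around PPM1H, 10 genes were tested in 4sU-seq, for LRRK kinases, Rab proteins and the Rab-binding proteins RILPL1 and RILPL2. There 2 fell (19.6% of all genes called). DESeq2 called LRRK2 and RAB8A in 4sU-seq as well, 1 higher and 3 lower in all. LRRK2, the higher gene, had 9 to 48 counts per 4sU-seq library (mean 0.17 CPM in Ctrl and 0.403 in KO). It was not tested in RNA-seq. Of 9 tested in RNA-seq 1 rose and 4 fell (48.4% of all genes called), and 2 rose and 3 fell with ERCC scaling, which added RAB8B and lost RAB10. LRRK1 fell by 0.81 ± 0.11 (adjusted p = 0.00601) and by 0.56 ± 0.07 (adjusted p = 1.78e-05), RAB29 rose by 0.42 ± 0.06 (adjusted p = 3.41e-05) and RAB35 fell by 0.43 ± 0.06 (adjusted p = 4.21e-05) in RNA-seq.

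The other genes called in these lists, named after their values were seen, were PDHB, PDK2, PDK3, MAPK9 and ARHGEF6, which rose in RNA-seq, and IVD, PDHA1, PDPR, MAP2K7, MAP3K5, PARVB, GSK3B, PAK1, CAMK1, CAMK4, RAB8A, RAB10 and TIMM50, which fell there. In 4sU-seq ARHGEF6 rose and RILPL1 fell. RILPL1 was not called in RNA-seq (0.12 ± 0.08, adjusted p = 0.209). It was called for the difference between assays (−0.51 ± 0.12, adjusted p = 0.0468), against 2.14% of all genes. ERCC scaling ended that call.

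Many of the RNA-seq calls in these lists depended on the scaling or on the spread. Of the other called genes just named, PDHB, PDK3, ARHGEF6, CAMK1 and RAB8A stayed called in RNA-seq under ERCC scaling, and IVD, PDHA1, PDK2, PDPR, MAP2K7, MAPK9, MAP3K5, PARVB, GSK3B, PAK1, CAMK4, RAB10 and TIMM50 did not. Among the genes given with values, ERCC scaling ended the calls of BCAT2, BCKDK, MDM4, VAPA, VAPB and COQ7 (adjusted p = 0.096 to 0.341), and library size alone ended the same 6 (adjusted p = 0.0705 to 0.701). With 1 estimate of spread over all 12 libraries those of DBT, BCAT2, BCKDK, H2AFX, MAP2K4, RAB35, COL4A3BP, VAPA, VAPB and BNIP3 were lost (adjusted p = 0.0622 to 0.462). In 4sU-seq ERCC scaling ended the calls of DLAT, SMAD3, PARVA, PAK2, LRRK1 and BNIP3L (adjusted p = 0.068 to 0.889), and those of ARHGEF6 and RILPL1. Of the calls in these pathway lists it left those of PDK4 and LIMS2.

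For the 3 relatives called in 1 direction in both assays, the most alike genes were sought by Pearson correlation of log2 CPM, centred within each assay, over the 12 libraries and 9905 coding genes. They were FAM111A (r = 0.99) and GCA (0.987) for PPM1K, NMT2 and DDX31 (both 0.996) for ILKAP, and DLAT and WDR3 (both 0.985) for PPTC7. At r above 0.9 there were 290 genes for PPM1K, 900 for ILKAP and 616 for PPTC7. The points share their libraries and genotype, so any gene that separates KO from Ctrl in both assays correlates in this way.

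On hg38 with GENCODE 29 coordinates, PPM1A (ENSG00000100614) spans 60245752 to 60299087 on chromosome 14 and PPM1B (ENSG00000138032) 44167969 to 44244384 on chromosome 2. PPM1D (ENSG00000170836) spans 60600183 to 60666280 on chromosome 17 and PPM1L (ENSG00000163590) 160755602 to 161078907 on chromosome 3, all on the plus strand. On the minus strand lie PPM1F (ENSG00000100034, chromosome 22, 21919420 to 21952837), PPM1H (ENSG00000111110, chromosome 12, 62643982 to 62935037) and PPM1K (ENSG00000163644, chromosome 4, 88257620 to 88284769). ILKAP (ENSG00000132323, chromosome 2, 238170401 to 238203729) and PPTC7 (ENSG00000196850, chromosome 12, 110533245 to 110583320) are on the minus strand too. PDP1 (ENSG00000164951) lies on chromosome 8. PPM1G (ENSG00000115241) spans 27381194 to 27409687 on the minus strand of chromosome 2.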

How the data were processed

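The authors deposited 2 tables of raw gene counts, 1 per assay, each with 56104 gene IDs, 92 ERCC species and 1 repeated header line. Per the submitters' processing notes, FastQC 0.11.2, HISAT2 2.1.0, SAMtools 1.3, featureCounts and hg38 were used. Annotation, counting feature and strand: not given in the sources used here. Counts were whole numbers. The 10 relatives, all lists and the rule for named genes (up to 3 called genes per list with the smallest p; for each relative called in 1 direction in both assays, the 2 most alike coding genes) were chosen with earlier results of these data known. One listed gene is not reported here.

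Each assay was fitted alone: ERCC counts left out, genes kept by filterByExpr (minimum count 10), TMM scaling, edgeR 4.0.16 quasi-likelihood F test, two-sided, Benjamini-Hochberg, threshold 0.05. Each standard error is |log2 change| over √F. The difference between assays was an interaction over 12 libraries, scaled within each assay. Ratios used CPM plus 0.5. Coordinates and lengths came from GENCODE 29, which held 52890 of the IDs (94.3%). The fits were tested on simulated data. Alternatives were other scalings, filters, tests (DESeq2 1.42.0), a replicate block, subtraction of a per-library trend over gene span and leaving out libraries. R 4.3.3, limma 3.58.1, Python 3.11.15 and matplotlib 3.10.9 were used. Same-numbered libraries deviated together with correlations of −0.18, 0.91 and 0.88 in 4sU-seq and −0.11, 0.30 and 0.39 in RNA-seq, so the numbers were not taken as pairs. RNA-seq KO replicates 1 and 2 were the most alike (mean chi-square per gene 2.05, against 14.5 to 25.8 for the other RNA-seq pairs within a genotype), still above sampling noise, and were counted as 2.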

Additional observations from a re-analysis of the deposited data

Results flagged for a closer look

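The KO change of PDP1 differed between the assays by a test of the difference itself: the log2 change in 4sU-seq minus that in RNA-seq was 0.77 ± 0.15 (edgeR interaction, adjusted p = 0.0252), with 3 of 3 KO libraries above all Ctrl libraries in 4sU-seq and the RNA-seq groups overlapping. The difference was 0.95 under ERCC scaling (adjusted p = 1) and 0.68 without a filter (adjusted p = 0.0528). MIR378D2, a gene in an intron of PDP1, was at 0 in every 4sU-seq library and at 234 to 333 counts in RNA-seq; its part was not tested.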

How the results depend on the processing

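Of 4166 genes and 4 relatives called in 4sU-seq, ERCC scaling left 716 and 0, the replicate block 6907 genes, and leaving out both libraries numbered 2 gave 10893. Leaving out 1 library gave 1322 to 11673 genes and 1 to 7 relatives, most without KO replicate 2. In RNA-seq (9871 genes, 6 relatives) all 12 libraries in 1 fit gave 4119 and 3. For the difference between assays (340 genes, 1 relative) ERCC scaling gave 7 and 0, no filter 185 and 0, the replicate block 663, removal of the gene span trend 612 and the DESeq2 Wald test 1060. Leaving out 1 library gave 90 to 5095 genes and 0 to 4 relatives. The causes were not tested.

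Same-numbered libraries share only a number, not a stated source. The block added PPM1A in 4sU-seq (0.73, adjusted p = 0.0128) and PDP1 in RNA-seq (−0.15, adjusted p = 0.0372) to the relatives called and ended none of their calls; in neither assay did every library correlate best with its own number.

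The log2 changes that turned sign in 4sU-seq were those of PPM1F (DESeq2 size factors −0.04, no filter −0.06, replicate block −0.03, DESeq2 Wald test −0.04, without both numbered 2 −0.23, without single libraries −0.32 to 0.12), PPM1H (ERCC scaling 0.18), TAB1 (no filter −0.02, without both numbered 2 −0.12, without single libraries −0.19 to 0.15), PPM1M (without both numbered 2 −0.17, without single libraries −0.27 to 0.31) and PPM1E (span trend removed, −0.01). In RNA-seq library size alone turned PPM1B and PDP1 (both 0.03), PPM1H (0.01), PHLPP2 (0.08) and PDP2 (0.09), and PPM1D ranged from −0.03 to 0.07 without single libraries. For the difference between assays PPM1K turned to −0.04 (DESeq2 size factors and a mean of at least 50 counts), −0.08 (library size alone), −0.05 (TMM over 12 libraries), −0.07 (no filter) and ranged, without single libraries, from −0.12 to 0.09. PPM1H turned to −0.01 (library size alone, no filter) and −0.18 (span trend removed), PPM1L to −0.09 (span trend removed), ILKAP to 0.03 (ERCC scaling), and PPM1F ranged from −0.42 to 0.02 without single libraries. Of the values that turned, that of PPM1F in 4sU-seq without KO replicate 2 (−0.32) passed the threshold.

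Over all alternatives the relatives kept direction and side of the threshold in 130 of 160 values in 4sU-seq, 122 of 160 in RNA-seq and 178 of 210 for the difference. The 95% intervals of all 20 family genes were wider in 4sU-seq than in RNA-seq.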
